A study of Arabidopsis thaliana with 24 samples.

Results

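Superoxide dismutases convert superoxide to hydrogen peroxide and oxygen, and plants hold 3 kinds that differ in the metal of the active site. The genes described here are the 8 rows of the expression table that carry the identifiers of this family. They come out of 26453 genes with reads in at least 1 library. The rule names identifiers and no measured value, but the family was chosen with earlier results of these data known. FSD1 (AT4G25100), FSD2 (AT5G51100) and FSD3 (AT5G23310) encode iron enzymes, CSD1 (AT1G08830), CSD2 (AT2G28190) and CSD3 (AT5G18100) copper/zinc enzymes, and MSD1 (AT3G10920) a manganese enzyme. The eighth gene, CCS (AT1G12520), encodes the chaperone that hands copper to the copper/zinc enzymes, and it was left out of sums over the 7 enzymes. All 8 passed the filter on low values.

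By background knowledge, CSD1 acts in the cytosol, CSD2 in the chloroplast, CSD3 in peroxisomes and MSD1 in mitochondria, whereas FSD2 and FSD3 sit in plastid nucleoids with the plastid-encoded RNA polymerase. In Arabidopsis the balance of iron and copper/zinc enzymes is known to follow copper supply. When copper is short, the transcription factor SPL7, which binds promoters at a GTAC core, raises FSD1 and the microRNA miR398, and miR398 cleaves the transcripts of CSD1, CSD2, CCS and the cytochrome c oxidase subunit gene COX5B-1.

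RNA was sequenced from the double mutant dpe2/phs1 (d), which lacks the cytosolic disproportionating enzyme DPE2 and the plastidial phosphorylase PHS1 of starch and maltose metabolism, and from its wild type Col-0 (w). Both were sampled after 9 h of light in a 12 h light and 12 h dark cycle as whole shoots of 3 weeks (Prior Period, P), as young (Y) or mature (M) leaves with petioles of 5 weeks (the Reduced Granule Number period, RGN, labelled Retard Period), and as whole shoots of 7 weeks by the labels (Recovery Period, R). Each of the 8 groups had 3 replicates, 24 libraries in all, and tissue and period cannot be told apart between Y or M and P or R. Levels are given as FPKM, mapped fragments scaled to transcript length and sequencing depth, and the recovered totals were 17504383 to 27859805 reads per library. A member had between 265 and 23033 reads in a library.

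Several properties of the libraries bear on the comparisons. DPE2 was at 19.2 to 46.0 FPKM in all mutant libraries, against 70.4 to 112 FPKM in Col-0 of P, Y and M, and PHS1 at 9.70 to 28.6 FPKM against 109 to 180.4 FPKM. In the libraries labelled wR, DPE2 (19.1 to 39.1 FPKM) and PHS1 (15.2 to 36.2 FPKM) overlapped dR, and neither gene passed the test there (adjusted p = 0.12 and 0.65). After correction for the trend with gene length, both were lower in dR than in wR (DPE2 -0.46, adjusted p = 0.00073, and PHS1 -0.83, adjusted p = 1.7e-06, log2 fold changes), the direction of the labels. These changes were smaller than in P, Y and M under the same correction. There DPE2 was at -0.954, -1.615 and -0.699, and PHS1 at -2.519, -2.749 and -2.935. The same libraries had the lowest levels of long relative to short genes, with log2 differences between the longest and shortest 10% of genes of -0.91, -1.24 and -2.03, against -0.67 to 1 in the others. The 5 leaf mesophyll markers summed to 11750 to 12290 FPKM in dM, against 21490 to 23030 FPKM in wM, and to at least 15730 FPKM in every other library. These markers did not change alike between dM and wM. After correction for gene length LHCB1.1 (2.54) and LHCB2.1 (1.27) were higher in dM, and RBCS1A (-1.13), RCA (-1.56) and PSAF (-2.80) were lower (log2 fold changes). Of the root markers, EXPA7 was listed at 0 and COBL9 did not exceed 0.0481 FPKM, whereas PYK10 reached 73.3 to 86.3 FPKM in dM, against 0.198 to 0.219 FPKM in wM, and 107 to 132 FPKM in dY, against 4.37 to 6.84 FPKM in wY. High root marker levels were not confined to the mutant. In whole shoots the root markers summed to 115.1 to 120.1 FPKM in dP and 98.08 to 110.1 FPKM in wP. In R the sums were 46.77 to 57.13 FPKM in dR and 8.247 to 21.18 FPKM in wR. Flower markers did not exceed 1.31 FPKM. The part of these differences in the results below was not tested, and in these bulk samples fewer cells of a type cannot be told apart from less RNA per cell.

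All 8 genes have the same coordinates in the deposited table (TAIR10) and in RefSeq (TAIR10.1). FSD1 lies at chr4:12884300-12887011 on the minus strand, FSD2 at chr5:20773235-20775739 (minus) and FSD3 at chr5:7850444-7852534 (plus). CSD1 lies at chr1:2827060-2829315 (plus), CSD2 at chr2:12014412-12016569 (plus), CSD3 at chr5:5987187-5988885 (plus), CCS at chr1:4267074-4268982 (minus) and MSD1 at chr3:3417940-3419892 (plus). Their longest coding models have 6 to 9 exons. CSD1 overlaps emb2411 on the opposite strand over 211 bases, and CSD3 overlaps a long non-coding RNA (AT5G02875) over 405 bases and NCBP over 142 bases, both on the opposite strand. Whether reads were counted by strand is not given in the sources used here, so reads in these overlaps may not be assigned to 1 gene.

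The sequences of miR398 and of its best paired stretches are shown because this microRNA is known to target CSD1, CSD2 and CCS. All of these fell in young leaves of dpe2/phs1. In mature leaves CSD2 fell while CSD1 and CCS did not pass the test, and in P CSD1 and CSD2 rose. The mature 3p arms were read from RefSeq TAIR10.1 at chr2:1041012-1041032 (miR398a), chr5:4691107-4691127 (miR398b) and chr5:4694778-4694798 (miR398c), all on the plus strand, and capitals mark the seed, bases 2 to 8.
miR398a-3p: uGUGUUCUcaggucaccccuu
miR398b-3p: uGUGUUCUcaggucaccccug
miR398c-3p: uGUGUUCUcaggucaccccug
The 3 arms share 1 seed. Arms b and c are identical, and arm a differs from both at the last base (U21G, counted from the 5′ end, with the base of arm a first).

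The transcript with the longest coding sequence of each of 27444 protein-coding genes was searched for the stretch that pairs best with miR398a-3p, at a cost of 1 for a mismatch, 0.5 for a G:U pair and 2 for an unpaired base. The 4 known targets follow, 5′ to 3′ on the transcript, with Watson-Crick paired bases in capitals.
CSD1: AAGGGGTttCCTGAGAtCACA
COX5B-1: AAGGtGTGACCTGAGAAtCACA
CCS: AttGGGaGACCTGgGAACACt
CSD2: tgcGGGTGACCTGgGAAACA
The stretch of CSD1 lies in the 5′ UTR across an exon junction (chr1:2827177-2827685, plus strand) and has 18 paired bases. That of COX5B-1 also lies in the 5′ UTR (chr3:5299204-5299225, plus) and has 20 paired bases. Both cost 3.0, a cost reached by 0.0109% of genes. Those of CCS (chr1:4267521-4267541, minus, cost 4.5) and CSD2 (chr2:12015572-12015591, plus, cost 5.0) lie in the coding sequence and each have 16 paired bases, with 0.197% and 0.725% of genes at or below their costs. With miR398b-3p the shares were 0.0364% for CSD1 and COX5B-1, 0.128% for CSD2 and 1.74% for CCS. The best stretches of FSD2, FSD3, CSD3 and MSD1 with miR398a-3p cost 7.0 or 7.5, where 40.2% and 66.5% of genes are at or below, and that of FSD1 cost 5.5 (2.53% of genes). A paired stretch is a description of the letters and not a measured cleavage site.

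The FSD1 promoter is shown as the window in which an SPL7 core could be read. From 250 bases before to 50 bases after the gene start, FSD1 holds 1 copy of GTAC (capitals), which reads the same on both strands, with its first base at -145 (gene start at 0). RefSeq TAIR10.1 has it at chr4:12886962-12887261, minus strand.
FSD1 promoter: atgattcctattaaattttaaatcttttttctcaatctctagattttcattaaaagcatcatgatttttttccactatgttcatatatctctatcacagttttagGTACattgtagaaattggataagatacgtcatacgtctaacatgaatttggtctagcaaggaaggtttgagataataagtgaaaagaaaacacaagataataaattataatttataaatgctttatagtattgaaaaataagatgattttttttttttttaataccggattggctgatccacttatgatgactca
In the same window CSD1 holds 2 copies of GTAC (first bases at -11 and -7), CSD3 and CCS hold 1 copy each, and FSD2, FSD3, CSD2 and MSD1 hold none. Of 27443 promoter windows of this length, 39.0% hold at least 1 copy and 9.76% at least 2, so that the 4 of 8 members are near the general share.

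In dpe2/phs1 the summed level of the 7 enzymes was highest in P and low in both leaf ages of RGN. It was 1852.0 ± 45.1 FPKM in dP, against 1163 ± 189 FPKM in wP, 521 ± 49.7 FPKM in dY, against 1099 ± 66.8 FPKM in wY, and 506 ± 49.2 FPKM in dM, against 829.6 ± 35.5 FPKM in wM (SD, n = 3 each). In R the sum was 1473 ± 88.8 FPKM in dR, against 1719 ± 109 FPKM in the libraries labelled wR. The libraries of mutant and Col-0 overlapped in none of the 4 pairs. With the gene length trend removed, the order in R turned, to 1495 ± 57.9 FPKM in dR and 1431 ± 16.2 FPKM in wR.

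The manganese enzyme took the largest share of the sum in dM, at 40.0% ± 1.44, against 21.8% ± 0.71 in wM, and 35.0% ± 2.12 in dY, against 15.9% ± 0.63 in wY. In P its share was 9.66% ± 0.23 in dP, against 13.0% ± 0.84 in wP, and in R 12.4% ± 0.26 in dR, against 14.0% ± 0.78 in the libraries labelled wR. The copper/zinc share was 29.3% ± 3.48 in dY, against 52.3% ± 0.58 in wY, whereas in mature leaves the libraries overlapped (29.7% ± 2.21 in dM and 28.4% ± 1.19 in wM). The iron share was 30.3% ± 2.54 in dM, against 49.9% ± 0.49 in wM, but 35.7% ± 1.51 in dY, against 31.8% ± 0.37 in wY. In P iron enzymes made up most of the sum in both genotypes (63.4% ± 0.33 in dP and 57.8% ± 0.25 in wP), and in R copper/zinc enzymes led in both (49.5% ± 0.55 in dR and 53.1% ± 1.61 in wR). Shares are described per library and were not tested. A share also depends on the levels of the other metals. MSD1 itself, the manganese enzyme, did not pass the limma test in dY against wY or in dM against wM (adjusted p = 0.69 and 0.22).

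**Figure D1:**
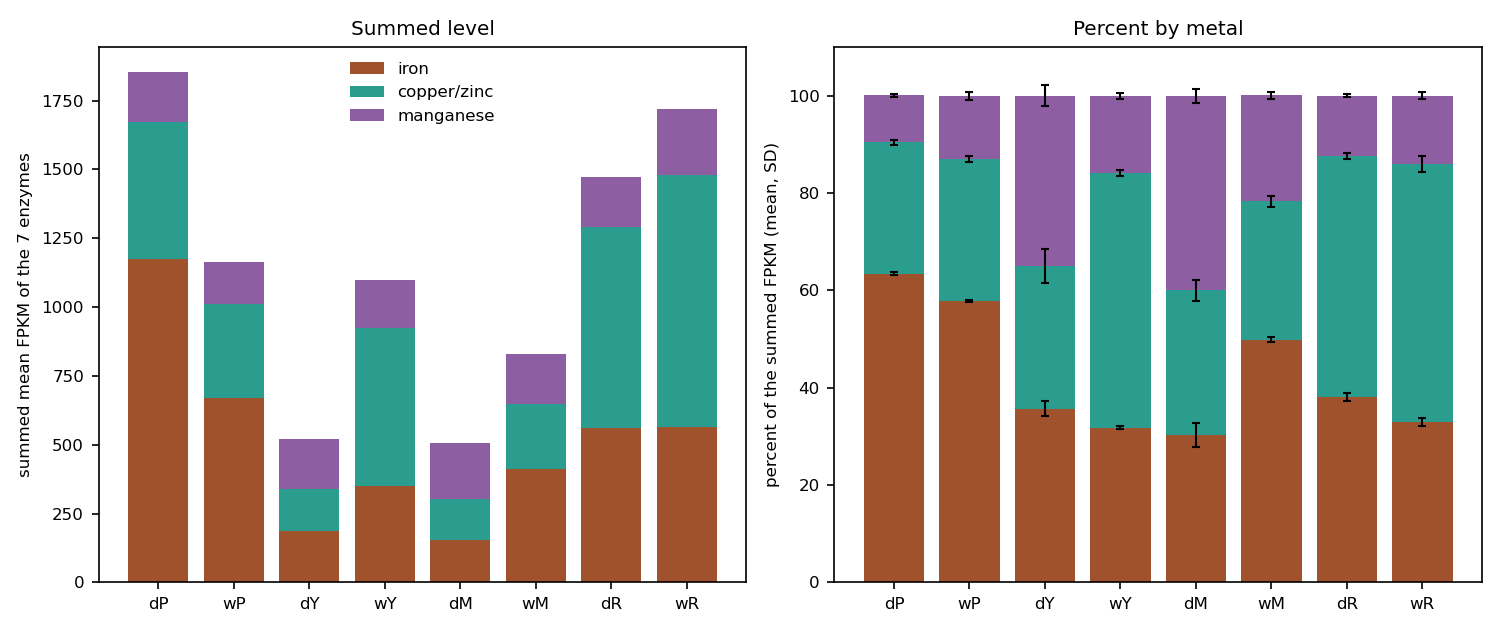
Summed FPKM of the 7 superoxide dismutases by metal (left, sums of group means) and percent of the sum per metal (right, mean of 3 libraries, each SD drawn at the top of its segment) in the 8 groups. Manganese (purple) reaches 40.0% in dM and 35.0% in dY, against 21.8% in wM and 15.9% in wY, and the sums in dY and dM are the lowest of the 8.

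In P, FSD1, FSD3, CSD1 and CSD2 rose and no member fell, 4 of 8 past an adjusted p of 0.05, where 39.2% of the 19575 genes tested passed. In young leaves FSD1, CSD1, CSD2 and CCS fell and FSD3 rose, 5 of 8 against 53.6% of all genes. In mature leaves FSD1 and CSD2 fell while FSD2 and FSD3 rose, 4 of 8 against 69.1% of all genes. In R, FSD2 and FSD3 rose and CSD1 and MSD1 fell relative to the libraries labelled wR, 4 of 8 against 56.8% of all genes. The median log2 fold change of the 8 members was 0.32, -0.60, -0.10 and -0.14 in P, Y, M and R, beside 0.06, 0.15, 0.05 and 0.05 over all genes tested. With 8 members, 4 or 5 called is no departure from these background shares that could be read as a result about the family, and the values of single genes follow.

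**Figure D2:**
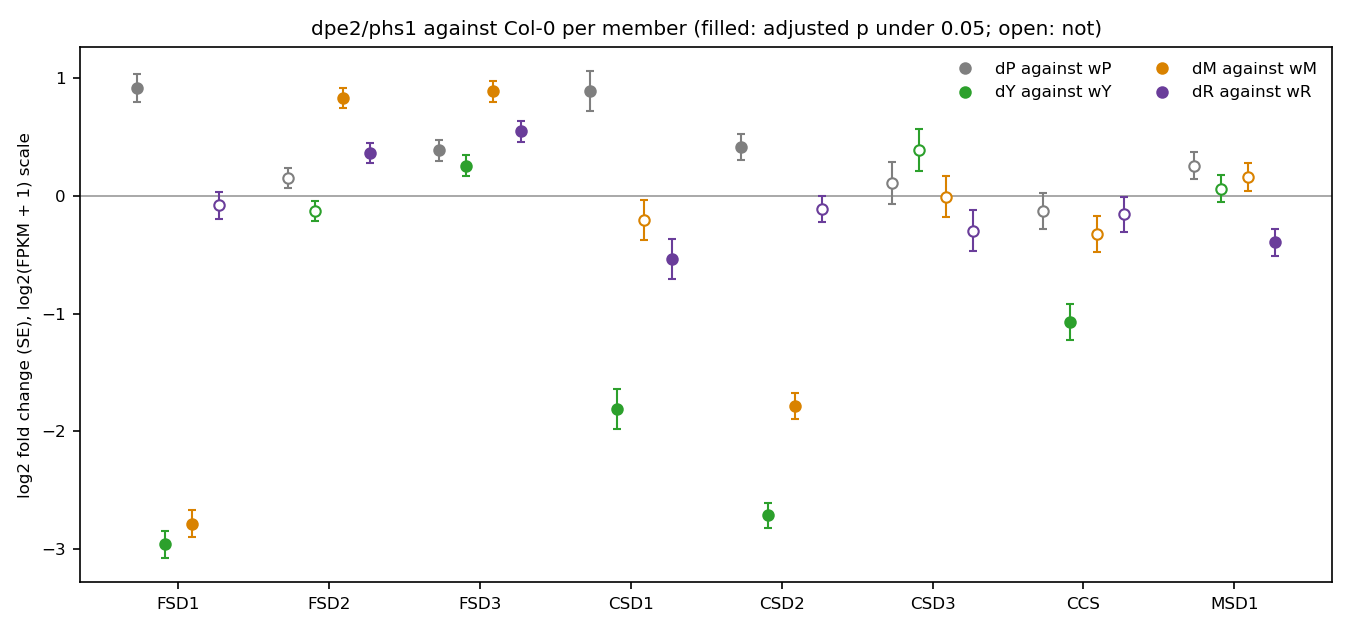
Log2 fold change of each gene in dpe2/phs1 against Col-0 (SE bars, log2(FPKM + 1) scale) in P, Y, M and R. Filled points passed an adjusted p of 0.05. FSD1 lies at -2.96 in Y and -2.79 in M, and CSD2 at -2.72 and -1.78, while FSD3 is above 0 in all 4 comparisons.

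FSD1, the iron enzyme with the highest FPKM in every group but dY and dM, varied most, 41.3-fold between the highest and the lowest group mean. In P its level was 1039.9, 986 and 1033 FPKM in dP, against 445, 635 and 558 FPKM in wP. Every mutant library was above every Col-0 library, a 1.87-fold rise (log2 fold change 0.92 ± 0.12 SE, adjusted p = 2.4e-06). In young leaves the level was 26.3, 23.3 and 24.6 FPKM in dY, against 187, 189.7 and 222 FPKM in wY. FSD1 thus fell to 12.4% of the Col-0 mean (log2 fold change -2.96 ± 0.12, adjusted p = 2.1e-15). In mature leaves it was 43.8, 50.7 and 60.5 FPKM in dM, against 350.5, 349.8 and 377 FPKM in wM, or 14.4% of the Col-0 mean (log2 fold change -2.79 ± 0.12, adjusted p = 3.7e-15). In R, 508, 465 and 463 FPKM in dR overlapped 470.0, 516 and 536 FPKM in the libraries labelled wR, and the test was not passed (log2 fold change -0.08 ± 0.12, adjusted p = 0.57).

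The mutant effect in M minus that in Y was 0.18 ± 0.17 on the log2 scale for FSD1 (adjusted p = 0.39), so that a difference between the leaf ages was not shown. In order of group mean, dP (1019.9 ± 29.2 FPKM) stood above wP (546 ± 95.5), wR (507 ± 33.6) and dR (479 ± 25.1), which overlapped in that order, and then came wM (359 ± 15.7), wY (199.6 ± 19.4), dM (51.7 ± 8.40) and dY (24.7 ± 1.52), none of which overlapped its neighbour (SD, n = 3 each). Of the summed FPKM of the 3 iron enzymes, FSD1 held 13.3% ± 0.30 in dY, against 57.1% ± 2.05 in wY, and 33.8% ± 4.55 in dM, against 86.9% ± 0.66 in wM. Elsewhere it held 81.2% to 89.7%. CPN20, a chloroplast chaperonin known to help activate FSD1, fell in young leaves, to 540 ± 32.0 FPKM in dY, against 805 ± 102 FPKM in wY (log2 fold change -0.57 ± 0.10, adjusted p = 7.3e-05), and its 446 ± 35.4 FPKM in dM against 492 ± 27.0 FPKM in wM did not pass the test (adjusted p = 0.22), but passed as lower in dM after correction for gene length (-0.42, adjusted p = 0.00018).

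**Figure D3:**
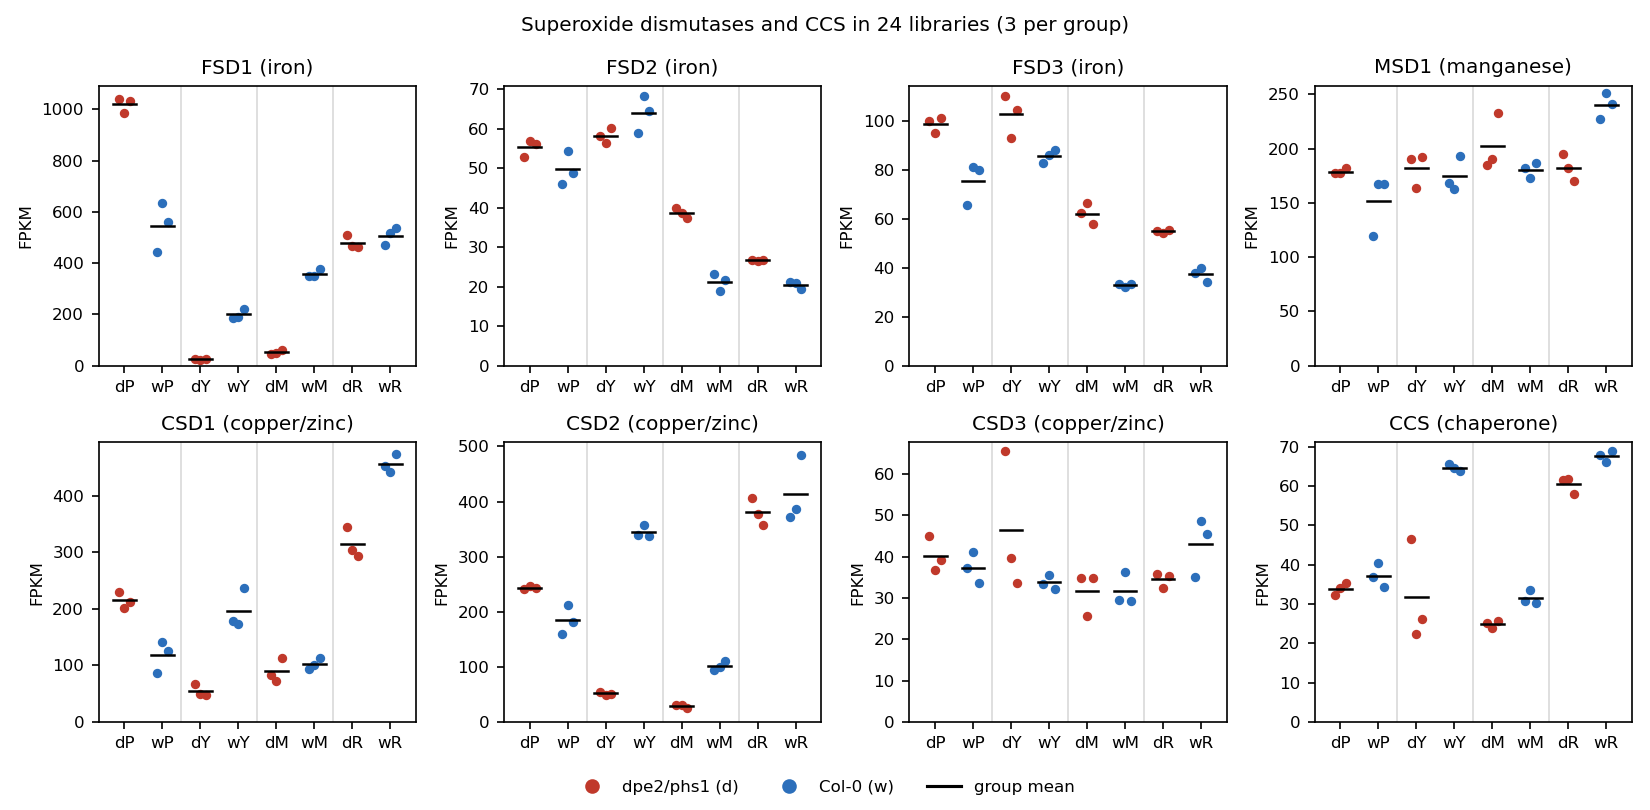
FPKM of the 7 superoxide dismutases and CCS in each of 24 libraries (points; black bars are means of 3), with dpe2/phs1 in red left of Col-0 in blue for P, Y, M and R. FSD1 is lowest in dY and dM (24.7 and 51.7 FPKM on average), FSD2 and FSD3 are higher in dM than in wM, and MSD1 stays between 119.6 and 251 FPKM throughout.

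FSD2 and FSD3 are the nucleoid enzymes. In mature leaves FSD2 was at 39.8, 38.6 and 37.4 FPKM in dM, against 23.1, 19.0 and 21.7 FPKM in wM, and rose 1.82-fold (log2 fold change 0.84 ± 0.09, adjusted p = 1.4e-08). FSD3 was at 62.3, 66.5 and 57.9 FPKM in dM, against 33.5, 32.3 and 33.5 FPKM in wM, and rose 1.88-fold (log2 fold change 0.89 ± 0.09, adjusted p = 1e-08). In neither gene did the groups overlap. In R both were again higher, FSD2 at 26.5 to 26.7 FPKM in dR, against 19.5 to 21.2 FPKM in wR (log2 fold change 0.36 ± 0.09, adjusted p = 0.0011), and FSD3 at 54.2 to 55.6 FPKM in dR, against 34.3 to 39.9 FPKM in wR (log2 fold change 0.55 ± 0.09, adjusted p = 2.8e-05).

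In P, FSD3 was at 100.1, 95.2 and 101 FPKM in dP, against 65.8, 81.3 and 80.2 FPKM in wP, and rose (log2 fold change 0.39 ± 0.09, adjusted p = 0.0015), whereas FSD2, at 52.8 to 56.9 FPKM in dP and 45.9 to 54.3 FPKM in wP, did not pass the test (adjusted p = 0.16). In young leaves FSD3 was at 111, 93.2 and 105 FPKM in dY, against 82.8, 86.1 and 88.4 FPKM in wY (log2 fold change 0.26 ± 0.09, adjusted p = 0.019). This call was lost without dY replicate 1 (0.20, adjusted p = 0.082), dY replicate 3 (0.24, adjusted p = 0.054) or wY replicate 1 (0.23, adjusted p = 0.066), and after median-of-ratios rescaling (0.085, adjusted p = 0.42) or correction for the trend with gene length (0.045, adjusted p = 0.61). Over all alternatives the adjusted p ranged from 0.0073 to 0.61. FSD2 had 56.3 to 60.1 FPKM in dY and 58.8 to 68.3 FPKM in wY, overlapping libraries (adjusted p = 0.21). It passed as lower in dY after median-of-ratios rescaling (-0.30, adjusted p = 0.006) and after correction for gene length (-0.35, adjusted p = 0.00076).

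Over the 8 group means, FSD2 and FSD3 had a Pearson r of 0.96, given as a description. Both were highest in young leaves and in P and lowest in wM and wR. FSD2 ranged from 63.9 ± 4.81 FPKM in wY to 20.5 ± 0.91 FPKM in wR, and FSD3 from 103 ± 8.87 FPKM in dY to 33.1 ± 0.67 FPKM in wM (SD, n = 3). The genes of 10 other proteins associated with the plastid RNA polymerase were set beside them. In dM against wM, 6 of these fell and 1 rose (median log2 fold change -0.53), where 69.1% of all genes were called and 32.5% were lower. PTAC12 was at 9.42 ± 2.1 FPKM in dM, against 27.6 ± 3.12 FPKM in wM (log2 fold change -1.47 ± 0.21, adjusted p = 1.6e-06), and PTAC14, PTAC3 and MURE also fell, with log2 fold changes of -0.79, -0.64 and -0.50 (the last 2 not past the threshold after correction for gene length), while PTAC10 had 19.0 ± 3.92 FPKM in dM and 21.0 ± 1.39 FPKM in wM (adjusted p = 0.55). After correction for gene length, 4 fell and 1 rose (median -0.15), where 71.5% of all genes were called, the change in PTAC12 being -1.46.

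In R, 8 of the 10 rose relative to the libraries labelled wR and 1 fell (median log2 fold change 1.05), where 56.8% of all genes were called and 31.6% were higher. PTAC10 was at 26.2 ± 6.56 FPKM in dR, against 5.66 ± 2.60 FPKM in wR (log2 fold change 2.08 ± 0.22, adjusted p = 1e-07), and PTAC12 at 25.0 ± 7.21 FPKM in dR, against 6.10 ± 2.45 FPKM in wR (log2 fold change 1.90 ± 0.21, adjusted p = 1.9e-07). The libraries labelled wR had the low levels of long genes given above, and these genes have fitted lengths of 726 to 3425 bases. With the length trend removed, 9 rose and 1 fell (median 0.88), where 52.9% of all genes were called, with PTAC10 at 1.69. In young leaves 2 of the 10 fell and none rose (7 fell and none rose with the length trend removed), and in P 2 rose and none fell (1 rose and 2 fell). Of all genes, 53.6% were called in young leaves and 39.2% in P (57.8% and 43.2% with the length trend removed).

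**Figure D4:**
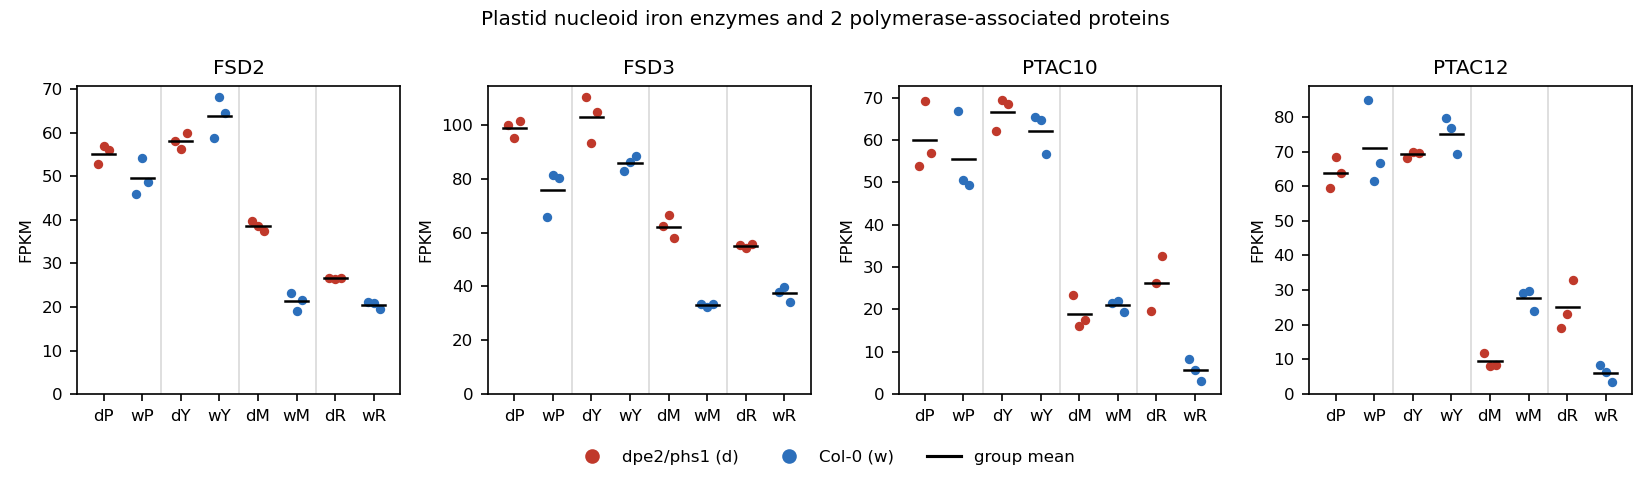
FPKM of FSD2, FSD3, PTAC10 and PTAC12 in each of 24 libraries (points; black bars are means of 3), with dpe2/phs1 in red left of Col-0 in blue. FSD2 and FSD3 are higher in dM than in wM (38.6 and 62.2 FPKM in dM, against 21.3 and 33.1 FPKM in wM), whereas PTAC12 is lower in dM (9.42 FPKM, against 27.6 FPKM in wM).

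CSD2, the chloroplast copper/zinc enzyme, fell in dpe2/phs1 in both leaf ages of RGN. In young leaves it was at 54.9, 48.9 and 51.1 FPKM in dY, against 339, 358 and 337 FPKM in wY, 6.67-fold lower on the group means (log2 fold change -2.72 ± 0.11, adjusted p = 2.7e-15). In mature leaves it was at 30.2, 30.9 and 25.3 FPKM in dM, against 95.1, 99.5 and 109.9 FPKM in wM, or 28.4% of the Col-0 mean (log2 fold change -1.78 ± 0.11, adjusted p = 2.5e-12). No library of the 2 genotypes overlapped. In P it rose, with 242, 247 and 243 FPKM in dP, against 159, 212 and 181 FPKM in wP (log2 fold change 0.41 ± 0.11, adjusted p = 0.0045), though not after quantile normalization (0.20, adjusted p = 0.062). In R the libraries overlapped, at 406, 378 and 358 FPKM in dR and 373, 386 and 485 FPKM in wR (adjusted p = 0.38). By group mean the order was wR (415 ± 61.1 FPKM), dR (381 ± 24.3), wY (345 ± 11.2), dP (244 ± 2.96), wP (184 ± 26.9), wM (101 ± 7.59), dY (51.6 ± 3.03) and dM (28.8 ± 3.06), and wR and dR were the neighbours that overlapped.

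CSD1, the cytosolic enzyme, was at 67.5, 49.9 and 48.2 FPKM in dY, against 179, 173 and 237 FPKM in wY, and fell to 28.1% of the Col-0 mean (log2 fold change -1.81 ± 0.17, adjusted p = 7.2e-09). In mature leaves it had 83.8, 72.7 and 114 FPKM in dM and 93.6, 101 and 112 FPKM in wM, overlapping and not past the threshold (log2 fold change -0.20 ± 0.17, adjusted p = 0.30). It passed as lower in dM after quantile normalization (-0.47) or correction for gene length (-0.55), with adjusted p over all alternatives from 0.00058 to 0.78. In P it rose 1.82-fold, with 231, 202 and 213 FPKM in dP, against 86.8, 141 and 126 FPKM in wP (log2 fold change 0.89 ± 0.17, adjusted p = 0.00028). In R it was at 346, 304 and 294 FPKM in dR, against 453, 443 and 474 FPKM in wR (log2 fold change -0.54 ± 0.17, adjusted p = 0.01), a call lost after correction for gene length (-0.21, adjusted p = 0.17). The FPKM ratio of CSD1 to CSD2 was 3.21 ± 1.14 in dM, against 1.01 ± 0.02 in wM, and 1.06 ± 0.15 in dY, against 0.57 ± 0.12 in wY.

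CCS, the copper chaperone, was at 46.5, 22.4 and 26.3 FPKM in dY, against 65.5, 64.6 and 63.7 FPKM in wY, and fell to 49.1% of the Col-0 mean (log2 fold change -1.07 ± 0.15, adjusted p = 3.7e-06). The first of these mutant libraries stood above the other 2, and without it the change was -1.38 (adjusted p = 3e-11). In mature leaves it had 25.1, 23.9 and 25.7 FPKM in dM and 30.6, 33.5 and 30.3 FPKM in wM, which did not overlap but did not pass the test (log2 fold change -0.33 ± 0.15, adjusted p = 0.062, and 0.0005 to 0.16 over the alternatives). In P (32.2 to 35.2 FPKM in dP and 34.3 to 40.3 FPKM in wP) and R (58.0 to 61.9 FPKM in dR and 66.2 to 68.8 FPKM in wR) the test was not passed either, with adjusted p of 0.54 and 0.39.

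CSD3, the peroxisomal enzyme and the copper/zinc member without a close match to miR398, passed the test in none of the 4 comparisons with limma (adjusted p = 0.66 in P, 0.067 in Y, 0.98 in M and 0.16 in R). It passed as higher in dY without dY replicate 3 (0.59, adjusted p = 0.0091) and as lower in dM after correction for gene length (-0.40, adjusted p = 0.019). Its level was 65.7, 39.8 and 33.6 FPKM in dY, where the first library stood apart, and 33.5, 35.5 and 32.3 FPKM in wY. In mature leaves it was 34.8, 25.6 and 34.8 FPKM in dM and 29.5, 36.3 and 29.3 FPKM in wM. The 8 group means lay within 31.7 to 46.4 FPKM, a 1.46-fold range, the smallest of the 8 members. All neighbours in the order of group means overlapped.

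The transcripts of MIR398A, MIR398C and the further miR398 target COX5B-1 were set beside these values. The MIR398 rows are hairpin transcripts, and the mature microRNA was not measured. MIR398A had 21, 22 and 19 reads in dY, against 0 in each of the wY libraries, at least 20.1-fold higher relative to a floor of 3 reads over the wY group. It had 79, 50 and 57 reads in dM, against 0, 4 and 2 reads in wM (31.3 ± 6.39 FPKM in dM and 0.95 ± 1.00 FPKM in wM, log2 fold change 4.17 ± 0.44, adjusted p = 2.4e-08). In P it had 2, 10 and 0 reads in dP and 3, 1 and 2 reads in wP, and in R 5, 6 and 2 reads in dR and 2, 0 and 1 reads in wR, where the adjusted p was 0.042 on reads at or near the floor (0.067 after correction for gene length). MIR398C had 11 reads in each dY library, against 0, 0 and 2 reads in wY (adjusted p = 4.5e-05), and 19, 7 and 14 reads in dM, against 4, 6 and 10 reads in wM (adjusted p = 0.026, and 0.26 after correction for gene length). In P it had 7, 9 and 3 reads in dP, against 2, 3 and 0 reads in wP (adjusted p = 0.022), and in R 7, 5 and 2 reads in dR and 7, 15 and 8 reads in wR (adjusted p = 0.074, and 0.041, lower in dR, after correction for gene length). MIR398B was listed at 0 in all libraries. MIR398A was thus highest in dM and dY, the groups in which FSD1, CSD1 and CSD2 had their lowest means. It was higher in dM than in dY, whereas CSD1 and CCS had log2 fold changes of -0.20 and -0.33 in M, against -1.81 and -1.07 in Y. MIR398C averaged 4.46 FPKM in dY and 4.31 FPKM in wR, where CSD1 and CSD2 had their highest means. FSD1, which by the background above rises with miR398 when copper is short, fell in both leaf ages. Whether miR398 acted on these transcripts was not tested.

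COX5B-1 is given because its transcript carries the stretch shown above and not by the rule for named genes. This gene, like SPL7 below, was named after its values were seen. COX5B-1 was at 41.8, 37.3 and 35.0 FPKM in dY, against 72.6, 72.3 and 84.1 FPKM in wY. It was 2.01-fold lower on the group means (log2 fold change -0.99 ± 0.12, adjusted p = 3e-07). In mature leaves its 45.3, 44.2 and 56.5 FPKM in dM lay below 58.2, 56.9 and 60.3 FPKM in wM (log2 fold change -0.27 ± 0.12, adjusted p = 0.047). After correction for gene length the changes of COX5B-1 were -1.21 in Y (adjusted p = 1.7e-10) and -0.53 in M (adjusted p = 2.7e-05). In P and R they were then 0.006 and -0.089, not past the threshold (adjusted p = 0.97 and 0.44). SPL7 itself was at 16.6 ± 0.19 FPKM in dY and 14.6 ± 1.38 FPKM in wY (adjusted p = 0.43), and at 9.0 ± 1.29 FPKM in dM, against 13.2 ± 2.06 FPKM in wM (log2 fold change -0.50 ± 0.19, adjusted p = 0.022), a call lost after correction for gene length (adjusted p = 0.37).

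Of 26 genes of copper homeostasis fixed as a list, 20 were tested. In young leaves 8 rose and 4 fell (median log2 fold change 0.23), and in mature leaves 9 rose and 6 fell (0.15). In P 5 rose and 5 fell (-0.13), and in R 8 rose and 9 fell (-0.16). Over all genes tested 53.6% were called in young leaves, 69.1% in mature leaves, 39.2% in P and 56.8% in R, so that the number called says little of this list. After correction for gene length the counts were 9 and 5 in young leaves, 10 and 4 in mature leaves, 4 and 6 in P and 3 and 9 in R. Of all genes, 57.8%, 71.5%, 43.2% and 52.9% were then called in these comparisons. YSL2, of the family of metal-nicotianamine transporters, was at 24.2, 22.4 and 21.2 FPKM in dY, against 1.24, 1.05 and 1.39 FPKM in wY, and at 34.0, 32.0 and 31.2 FPKM in dM, against 3.14, 3.23 and 3.13 FPKM in wM, with log2 fold changes of 3.41 ± 0.15 and 3.00 ± 0.15. COPT2, a copper importer of the plasma membrane, was at 11.3 ± 0.43 FPKM in dY, against 0.38 ± 0.34 FPKM in wY (log2 fold change 3.19 ± 0.20, adjusted p = 5.6e-12), and at 20.0 ± 4.43 FPKM in dM, against 7.90 ± 0.58 FPKM in wM (log2 fold change 1.22 ± 0.20, adjusted p = 9.6e-06). CCH, a copper chaperone, was at 133 ± 18.6 FPKM in dY, against 39.1 ± 12.4 FPKM in wY, and at 257 ± 67.6 FPKM in dM, against 105 ± 6.45 FPKM in wM (log2 fold changes 1.77 and 1.25). Other genes of the list were lower. PAA2 was at 19.7 ± 0.70 FPKM in dY, against 29.9 ± 0.61 FPKM in wY, and at 11.2 ± 1.0 FPKM in dM, against 35.2 ± 1.45 FPKM in wM. After correction for gene length the log2 fold changes in Y and M were -0.644 and -1.092 for PAA2 and -1.135 and -1.552 for PETE2. In R, CCH fell relative to wR (log2 fold change -0.81 ± 0.18, adjusted p = 0.0007) and YSL2 rose (0.73 ± 0.15, adjusted p = 0.00025).

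**Figure D5:**
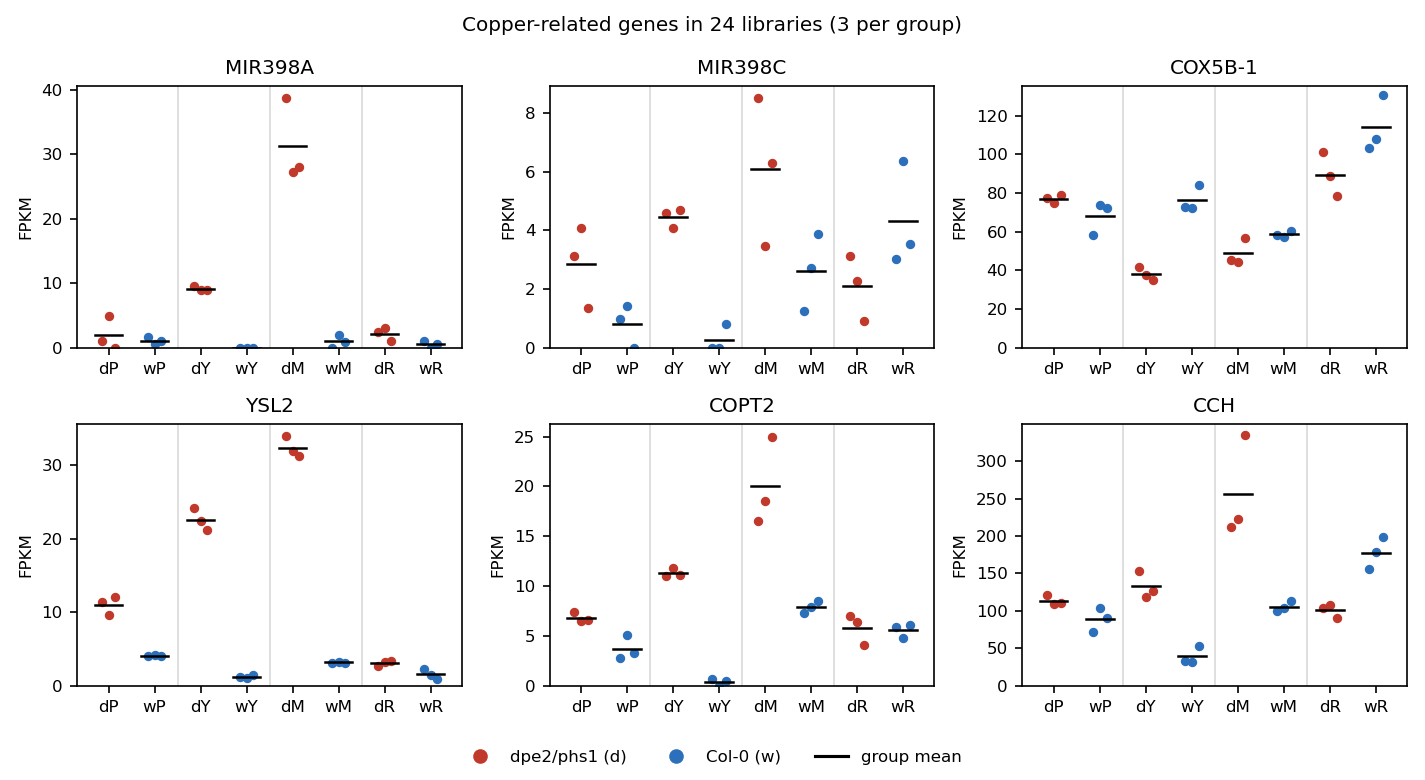
FPKM of MIR398A, MIR398C, COX5B-1, YSL2, COPT2 and CCH in each of 24 libraries (points; black bars are means of 3), with dpe2/phs1 in red left of Col-0 in blue. MIR398A averages 31.3 FPKM in dM and 9.16 FPKM in dY and at most 2.13 FPKM in every other group, and YSL2 averages 32.4 FPKM in dM and 22.6 FPKM in dY, against 3.17 FPKM in wM and 1.23 FPKM in wY.

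MSD1, the mitochondrial manganese enzyme, passed the test in R alone of the 4 comparisons. Its level was 191, 164 and 192 FPKM in dY and 168, 163 and 193 FPKM in wY (log2 fold change 0.06 ± 0.12, adjusted p = 0.69), and 185, 191 and 233 FPKM in dM and 182, 173 and 187 FPKM in wM (0.16 ± 0.12, adjusted p = 0.22). In P it was 177, 177 and 182 FPKM in dP and 119.6, 168 and 167 FPKM in wP, libraries that did not overlap but did not pass the test (adjusted p = 0.085), except without wP replicate 2 (0.34, adjusted p = 0.038) or wP replicate 3 (0.33, adjusted p = 0.047). In R it fell, with 195, 182 and 169.8 FPKM in dR, against 227, 251 and 241 FPKM in wR (log2 fold change -0.40 ± 0.12, adjusted p = 0.0059), a call lost after correction for gene length (-0.11, adjusted p = 0.32). Over all groups its mean ranged 1.58-fold, and every pair of neighbours in the order of group means overlapped. MSD2, a gene of the same metal class that is no member here, stayed at or below 0.44 FPKM. Set against MSD1, the FPKM ratio of FSD1 to MSD1 was 0.14 ± 0.01 in dY, against 1.14 ± 0.03 in wY, and 0.25 ± 0.02 in dM, against 1.99 ± 0.06 in wM.

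Of 10 manganese transport genes, 9 were tested. In dM 4 rose and 1 fell relative to wM (median log2 fold change 0.20), and in dY 2 rose and 1 fell relative to wY (0.08), where 69.1% and 53.6% of all genes were called. NRAMP4, a vacuolar metal exporter, rose most, with 101 ± 3.21 FPKM in dY, against 14.3 ± 1.42 FPKM in wY (log2 fold change 2.73 ± 0.11, adjusted p = 4.5e-15), and 133 ± 12.7 FPKM in dM, against 24.3 ± 0.25 FPKM in wM (2.40 ± 0.11, adjusted p = 2.5e-14). NRAMP1, which takes up manganese at the plasma membrane, was at 10.7 ± 0.24 FPKM in dY, against 4.18 ± 0.30 FPKM in wY, and at 26.9 ± 1.26 FPKM in dM, against 12.04 ± 0.81 FPKM in wM (2.56-fold and 2.23-fold, adjusted p = 7.2e-07 and 1e-06). NRAMP3, a close relative of NRAMP4, rose in dM (1.44 ± 0.16, adjusted p = 5.7e-08). PAM71, of the thylakoid membrane, fell to 19.2 ± 2.1 FPKM in dM, against 38.7 ± 2.19 FPKM in wM (-0.98 ± 0.10, adjusted p = 1.7e-08), and MTM2 fell in dY (-0.71 ± 0.13, adjusted p = 0.00013). In P 2 rose and 1 fell, and in R 2 rose and none fell, where 39.2% and 56.8% of all genes were called. After correction for gene length 1 rose and 3 fell in P, 2 and 3 in dY, 4 and 3 in dM, and 1 and 2 in R. Of all genes, 43.2%, 57.8%, 71.5% and 52.9% were then called in these comparisons.

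NADPH oxidases of the RBOH family, which produce superoxide at the plasma membrane, were mostly low, and 2 of 10 genes were tested. RBOHD had 26.8 ± 4.07 FPKM in dY and 25.0 ± 0.93 FPKM in wY, and 50.4 ± 1.06 FPKM in dM and 44.9 ± 0.70 FPKM in wM, neither past the threshold (adjusted p = 0.56 and 0.23), and it fell in dP (log2 fold change -0.53 ± 0.12, adjusted p = 0.0013). RBOHF rose in dY, to 6.48 ± 0.62 FPKM against 2.98 ± 0.45 FPKM in wY (0.92 ± 0.20, adjusted p = 0.00052), and fell in dM, to 2.68 ± 0.71 FPKM against 4.71 ± 0.22 FPKM in wM (-0.65 ± 0.20, adjusted p = 0.006). In dR it rose relative to wR (0.78 ± 0.20, adjusted p = 0.0022). After correction for gene length the changes of RBOHF in M (0.14, adjusted p = 0.24) and R (-0.14, adjusted p = 0.26) had the other sign and were not called, while RBOHD passed as higher in dM (0.83, adjusted p = 1.1e-06) and lower in dR (-0.99, adjusted p = 3.9e-07).

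In Col-0, FSD1 rose and FSD2, FSD3, CSD1, CSD2 and CCS fell in wM relative to wY, 6 of 8 against 44.0% of all genes (median log2 fold change -0.97, beside -0.07 over all genes). CSD2 had the largest fall, to 29.4% of the level in wY (log2 fold change -1.76 ± 0.11, adjusted p = 9e-12), followed by FSD2 (-1.54 ± 0.09, adjusted p = 1.2e-12), FSD3 (-1.35 ± 0.09, adjusted p = 2.5e-11), CCS (-1.02 ± 0.15, adjusted p = 9e-06) and CSD1 (-0.92 ± 0.17, adjusted p = 0.00011), while FSD1 rose 1.80-fold (0.85 ± 0.12, adjusted p = 2.8e-06). In the mutant, FSD1 and CSD1 rose and FSD2, FSD3, CSD2 and CSD3 fell in dM relative to dY, 6 of 8 (median -0.38, beside -0.16), a share near the 67.7% of all genes. FSD1 rose 2.09-fold (1.02 ± 0.12, adjusted p = 9.4e-08) and CSD1 1.63-fold (0.69 ± 0.17, adjusted p = 0.0012). The fall of CSD3 (-0.49 ± 0.18, adjusted p = 0.018) was lost without dY replicate 1 (-0.21, adjusted p = 0.21) or dM replicate 2 (-0.35, adjusted p = 0.12), after median-of-ratios rescaling (-0.23, adjusted p = 0.25) and in a fit of those 2 groups alone (-0.49, adjusted p = 0.1). CCS passed as lower in dM after TPM rescaling (-0.33, adjusted p = 0.045) or without dY replicate 2 (-0.48, adjusted p = 0.0059), and MSD1 as higher in dM after median-of-ratios rescaling (0.42, adjusted p = 0.0059).

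The difference between the mutant effects in the 2 leaf ages was tested directly. It passed for FSD2, FSD3, CSD1, CSD2 and CCS, 5 of 8 against 48.8% of all genes, and in each the value in M was above that in Y. For CSD1 the mutant effect in M minus that in Y was 1.61 ± 0.24 (adjusted p = 1.2e-05), for FSD2 0.96 ± 0.12 (adjusted p = 1.3e-06), for CSD2 0.93 ± 0.15 (adjusted p = 3.9e-05), for CCS 0.75 ± 0.22 (adjusted p = 0.0068) and for FSD3 0.63 ± 0.13 (adjusted p = 0.00029). FSD1, CSD3 and MSD1 did not pass (adjusted p = 0.39, 0.20 and 0.64), except CSD3 without dY replicate 3 (-0.59, adjusted p = 0.047).

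Between the 2 whole-shoot periods, FSD2 and FSD3 fell and CSD1, CSD2 and CCS rose in both genotypes. In dR relative to dP, FSD1 (log2 fold change -1.09 ± 0.12, adjusted p = 2.9e-07), FSD2 (-1.03 ± 0.09, adjusted p = 6.4e-09) and FSD3 (-0.83 ± 0.09, adjusted p = 2.7e-07) fell, and CCS (0.82 ± 0.15, adjusted p = 0.00028), CSD2 (0.64 ± 0.11, adjusted p = 0.00011) and CSD1 (0.55 ± 0.17, adjusted p = 0.016) rose, 6 of 8 against 35.6% of all genes (median -0.09, beside -0.10). The rise of CSD1 was lost without dP replicate 2 (0.50, adjusted p = 0.060) or dR replicate 1 (0.48, adjusted p = 0.072). In the libraries labelled wR relative to wP, FSD2 (-1.23 ± 0.09, adjusted p = 3.6e-11) and FSD3 (-0.995 ± 0.09, adjusted p = 2.1e-09) fell and CSD1 (1.97 ± 0.17, adjusted p = 1.2e-09), CSD2 (1.17 ± 0.11, adjusted p = 4.1e-09), CCS (0.85 ± 0.15, adjusted p = 3.6e-05) and MSD1 (0.68 ± 0.12, adjusted p = 2e-05) rose, 6 of 8 against 71.6% of all genes (median 0.43, beside -0.06). FSD1 overlapped between wR and wP (adjusted p = 0.48), and passed as lower in wR after TPM rescaling (-0.33, adjusted p = 0.0037) or correction for gene length (-0.51, adjusted p = 4.4e-05).

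The mutant effect in R minus that in P passed for FSD1 (-0.997 ± 0.17, adjusted p = 5.9e-05), CSD1 (-1.43 ± 0.24, adjusted p = 7e-05), CSD2 (-0.53 ± 0.15, adjusted p = 0.007) and MSD1 (-0.65 ± 0.16, adjusted p = 0.0024), 4 of 8 against 51.9% of all genes. After correction for gene length the difference was not past the threshold for CSD2 (-0.042, adjusted p = 0.79) and MSD1 (-0.17, adjusted p = 0.31), and it then passed for FSD2 (0.63, adjusted p = 0.00016) and FSD3 (0.50, adjusted p = 0.00046). CSD2 was also lost after quantile normalization (-0.24, adjusted p = 0.099). Leaving the 3 libraries labelled wR out of the fit, an alternative chosen after seeing the data, changed no call of a member in the comparisons without them.

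Within the family, the group means of CSD2 went with those of CCS (Pearson r = 0.88), CSD1 (0.87) and FSD1 (0.78), whereas FSD1 had r = -0.30 with FSD2 and -0.28 with FSD3, all over 8 group means of log2(FPKM + 1) and given as a description, since the groups share tissue, age and genotype. Among all other genes that carry a symbol, the pattern most like FSD1 was that of APXS (AT4G08390, r = 0.96), a stromal and mitochondrial ascorbate peroxidase, at 1.86 FPKM in dY, against 81.2 FPKM in wY, and 12.3 FPKM in dM, against 58.4 FPKM in wM. AEE9 and RPS2B followed, both at 2.44 FPKM or less. For CSD2 the closest were PAR2 (r = 0.99), PSAH2 (0.98), a photosystem I subunit at 535 FPKM in dY, against 1059 FPKM in wY, and RABA3 (0.97). PAR2 and RABA3 were low, with highest group means of 6.71 and 2.89 FPKM, both in wR. For MSD1 they were IAA16 (0.98), CYS3 (0.98) and the dehydrin ERD14 (0.98), the last at 429.6 FPKM in dM, against 339 FPKM in wM, and 283 FPKM in dR, against 1024 FPKM in wR.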

How the data were processed

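RNA was extracted with TRIzol, made into libraries with a NEBNext Ultra RNA kit and sequenced as paired ends on a NovaSeq instrument. The submitters' processing notes name CASAVA, HISAT2, featureCounts and TAIR10, with no versions. The authors deposited FPKM values per gene and library, and how featureCounts output was turned into them is not given in the sources used here. The study's own test models counts. The deposited unit is FPKM, so the values were tested here as log2(FPKM + 1) with limma 3.58.1 (R 4.3.3), with 1 mean per group over all 24 libraries, a trended prior and Benjamini-Hochberg adjustment over the 19575 genes whose mean reached 1 FPKM in at least 1 group. Fold changes on this scale understate changes of low genes. Values with ± after a log2 fold change are standard errors. Calls were made at an adjusted p of 0.05.

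Read numbers were recovered from the FPKM steps with gene lengths fitted from the values: 100% of values above 0 came out whole within 0.001 of a read, against 55.0% with the listed lengths. Totals were 17504383 to 27859805 reads (median 19438279). Counting error alone is covered by such totals, and p-values measure the spread between these samples, which the study calls biological replicates while the labels name no separate plants or pools. No pair of replicates agreed within sampling noise (mean chi-square per gene 2.46 to 65.1 over 24 pairs).

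The members and lists were chosen with earlier results of these data known. All 8 members were named, and from each list up to 5 genes with the largest absolute log2 fold change past the threshold in a comparison of mutant and Col-0. COX5B-1, SPL7, PAA2 and PETE2 were named after their values were seen. For FSD1, CSD2 and MSD1 the 3 genes with a symbol and the highest correlation over group means were named. Alternatives were a pseudocount of 0.1, no filter (26453 genes) or a filter of 5 FPKM (15555 genes), median-of-ratios, TPM and quantile scaling, a loess correction for gene length (span 0.3), the compared groups alone, a replicate block, limma-voom on recovered reads and each replicate left out. Scripts were tested on simulated data. Sequences came from RefSeq (TAIR10.1), read with Biopython 1.88.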

Additional observations from a re-analysis of the deposited data

Results flagged for a closer look

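The effect of dpe2/phs1 differed between mature and young leaves for 5 of 8 members by a test of the difference itself (limma, mutant effect in M minus that in Y, log2). Of all genes, 48.8% passed this test, so the count is no result about the family. The values were 1.61 for CSD1, 0.963 for FSD2, 0.932 for CSD2, 0.746 for CCS and 0.633 for FSD3. CSD1, CSD2 and CCS were less reduced in M than in Y, and FSD2 and FSD3 had log2 fold changes of 0.84 and 0.89 in M, against -0.13 and 0.26 in Y. In the wild type these 5 genes were lower in wM than in wY.

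Between the whole-shoot periods the effect differed for 4 of 8 members (mutant effect in R minus that in P), where 51.9% of all genes passed. The values were -1.427 for CSD1, -0.997 for FSD1, -0.651 for MSD1 and -0.527 for CSD2. These comparisons include the libraries labelled wR, whose long genes were low. After correction for gene length CSD1 and FSD1 kept their call, and CSD2 and MSD1 did not.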

How the results depend on the processing

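Of 80 fold changes of members, 50 passed the threshold. Of all genes, 35.6% (dR against dP) to 71.6% (wR against wP) passed, depending on the comparison. Among the 50 calls of members, 8 were lost in at least 1 alternative and 0 turned direction. With the correction for gene length, 7 members passed in dM against wM and 2 in dR against wR, where 4 passed in each as reported. Of all genes, 71.5% and 52.9% passed in these comparisons with the correction, and 69.1% and 56.8% as reported. The same correction gave iron shares of 64.1% in dP, 31.2% in wY, 49.2% in wM and 33.8% in wR, and copper/zinc shares of 26.3% in dP and 53.0% in wY. The causes were not tested. Median-of-ratios rescaling moved the median of all genes from 0.15 to 0.01 in dY against wY and from -0.16 to 0.05 in dM against dY.

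The values that turned direction were all of members that had not passed the threshold (log2 fold changes). With the gene length trend removed these were, in dP against wP, FSD2 -0.017 and CSD3 -0.139, in dY against wY, CSD3 -0.005 and MSD1 -0.166, in dM against wM, MSD1 -0.109, in dR against wR, FSD1 0.168, CSD2 0.172 and CCS 0.046, in wR against wP, CSD3 -0.243, and for the mutant effect in R minus that in P, CSD3 0.131 and CCS 0.315. With quantile normalization they were MSD1 -0.037 (dM against wM), FSD1 0.016 (dR against wR), MSD1 -0.027 (dM against dY), FSD1 -0.052 and MSD1 -0.138 (mutant effect in M minus that in Y) and CCS 0.177 (mutant effect in R minus that in P). With TPM rescaling they were FSD1 0.056 and CSD2 0.024 (dR against wR), CSD3 -0.034 (wR against wP) and CCS 0.183 (R minus P). With median-of-ratios rescaling they were MSD1 -0.112 (dY against wY), CSD3 0.024 (wM against wY) and CCS 0.019 (R minus P), and with limma-voom CSD3 0.005 (dM against wM).

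Leaving out 1 library at a time gave ranges across 0 for CSD3 in dM against wM (-0.078 to 0.137), CSD2 in dR against wR (-0.186 to 0.003), CCS in dM against dY (-0.476 to 0.034), MSD1 in dR against dP (-0.024 to 0.075), FSD1 in wR against wP (-0.234 to 0.022), MSD1 for M minus Y (-0.003 to 0.164) and CCS for R minus P (-0.09 to 0.024). Same-numbered samples did not deviate together (correlations -0.411 to 0.406, with 0 comparisons in which all were over 0.1), and a replicate block left the counts of members past the threshold at 4 in dP against wP, 5 in dY against wY, 4 in dM against wM and 4 in dR against wR. Of all genes, 38.4%, 53.1%, 68.9% and 56.2% passed with this block.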
